A study of Mus musculus and Homo sapiens with 9 samples.

Results

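The genes MCM8, MCM9 and HROB were examined in 9 CUT&Tag peak lists, 4 from the human embryonic kidney line HEK293 and 5 from mouse embryonic fibroblasts (MEFs). A peak was taken when it shared at least 1 bp with the gene body or with the 1 kb on either side of it. Of 102544 peaks in all, 19 met this rule. The HEK293 lists held 10 of them and the MEF lists 9. The genes are MCM8 (ENSG00000125885.13, chr20:5950652-5998977, plus strand), MCM9 (ENSG00000111877.18, chr6:118813442-118935162, minus strand) and HROB (ENSG00000125319.15, chr17:44141906-44162476, plus strand) in hg38 with GENCODE 44. In mm10 with GENCODE M21 they are Mcm8 (ENSMUSG00000027353.14, chr2:132816141-132844197, plus strand), Mcm9 (ENSMUSG00000058298.10, chr10:53536315-53630439, minus strand) and Hrob, listed there as BC030867 (ENSMUSG00000034773.16, chr11:102248882-102265187, plus strand).

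MCM8 and MCM9 are relatives of the replicative helicase subunits MCM2 to MCM7 and form a helicase of their own, which unwinds DNA during homologous recombination and the repair of interstrand crosslinks. HROB binds this pair, brings it to sites of recombination and stimulates its helicase activity. An R-loop forms when RNA pairs with its template strand and displaces the other strand, most often at the start of transcribed genes. In CUT&Tag an antibody tethers a transposase, so that DNA beside the antibody is cut, tagged and sequenced. The S9.6 antibody recognises RNA-DNA hybrids, and anti-FLAG recognises a tagged protein.

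MEFs were taken from mouse embryos of mixed C57BL/6J and ICR background and immortalised with SV40. The Mcm8 KO MEFs carry a CRISPR-Cas9 deletion of exon 7, and the WT MEFs are their Mcm8 wildtype counterpart. The shControl and shDdx5 MEFs received an adenovirus with a control shRNA or with one against Ddx5, an RNA helicase that removes R-loops. The peak names in these lists begin shD1 and shD2, which name neither group, and the groups rest on the labels alone. These 4 libraries were made with S9.6, and a library of wildtype MEFs had no primary antibody. All 4 HEK293 libraries are labelled wildtype. They were made with mouse IgG, with anti-FLAG after transfection of a FLAG-MCM8 plasmid that carries the full-length MCM8 cDNA, with S9.6 (its label names no transfection), and with S9.6 in cells given an RNH1 plasmid. In the paper's text RNH1 stands for RNase H1, which digests the RNA of hybrids. Each group was 1 library, so no difference could be set against replicate error, no p was computed between groups, and all intervals below cover counting error only, in reads that are not all independent molecules.

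The lists held between 4314 and 17178 peaks. A summit pileup is the number of fragments stacked at the highest point of a peak, and it was solved with the local background from the deposited fold and Poisson p. The lowest background of a list, which follows sequencing depth, was 1.31 to 1.67 fragments in the 4 S9.6 MEF lists, 0.191 in the no-antibody list and 1.81 to 3.34 in HEK293 cells. Median pileups were 8 to 10 fragments in the S9.6 MEF lists, 3 without antibody and 14 to 21 in HEK293 cells. Between 8.76 and 60.5% of the peaks of a MEF list, and all of those in HEK293 cells, had a q of at most 0.05. MEF peaks reached down to a −log10 p of 3 and HEK293 peaks to 5. Counts and strengths of peaks were therefore not compared between the cell types.

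The peaks that stood out lay on MCM8 coding exons in HEK293 cells. Their plus-strand hg38 sequences are shown because both ends of each peak fell at the edge of a coding exon. Capitals mark coding bases and lower case marks intron. The first 2 lines give the outer ends of a peak at chr20:5967426-5968037, from base 5967426 to 5967465 and from base 5967998 to 5968037. The third is the whole peak at chr20:5984789-5985006, and the fourth the whole peak at chr20:5985914-5986132.
MCM8 exon 9, first bases of the peak: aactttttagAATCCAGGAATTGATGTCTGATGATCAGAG
MCM8 exon 10, last bases of the peak: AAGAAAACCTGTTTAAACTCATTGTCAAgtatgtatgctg
MCM8 exon 15, whole peak: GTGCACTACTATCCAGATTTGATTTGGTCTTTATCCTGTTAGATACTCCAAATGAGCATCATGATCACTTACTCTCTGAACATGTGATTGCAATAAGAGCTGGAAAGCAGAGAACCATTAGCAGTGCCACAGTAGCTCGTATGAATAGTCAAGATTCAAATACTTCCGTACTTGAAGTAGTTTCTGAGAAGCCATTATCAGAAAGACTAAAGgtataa
MCM8 exon 16, whole peak: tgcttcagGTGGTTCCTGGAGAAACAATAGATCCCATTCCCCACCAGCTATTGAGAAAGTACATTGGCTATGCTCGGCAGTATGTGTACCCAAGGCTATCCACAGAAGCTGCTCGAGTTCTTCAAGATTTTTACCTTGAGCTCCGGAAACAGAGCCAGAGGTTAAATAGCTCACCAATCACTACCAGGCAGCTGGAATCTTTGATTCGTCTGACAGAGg

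In FLAG-MCM8, the first peak began 10 bp before exon 9 and ended 12 bp after exon 10, so it also spanned the intron of 242 bp between them. The second peak began 8 bp inside exon 15 and ended 6 bp after it. The third began 8 bp before exon 16 and ended 1 bp after it. Coding bases made up 56.9% of the first peak, 97.2% of the second and 95.9% of the third. A plasmid with a cDNA holds joined exons and no introns, so fragments from it align to the exons of the chromosomal gene. In these exons, fragments from the plasmid and from the gene itself cannot be told apart in a peak list. The annotation also lists a gene without a symbol, ENSG00000286235, that shares these exons.

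The MCM8 exon peaks were the strongest of the FLAG-MCM8 list by p. The peak on exons 9 and 10 had a pileup of 4218 fragments (95% Poisson interval 4092 to 4347), a fold of 21.6 over local background and a −log10 p of 3893. The exon 15 peak had a pileup of 5481 (5337 to 5628), a fold of 11.1 and a −log10 p of 3562. The exon 16 peak had a pileup of 5060 (4922 to 5201), a fold of 10.2 and a −log10 p of 3129. By pileup exon 15 was first, exon 16 second and the peak on exons 9 and 10 next, and the next highest pileup of that list was 379. Fold divides by the local background, which was 495 fragments at exons 15 and 16 and 194 at exons 9 and 10, beside a median of 1.92 over the list.

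A peak with the same start, end and summit (5967936) as the first was listed in S9.6 and RNH1. In S9.6 it had a pileup of 1141 fragments (1076 to 1209), a fold of 19.7 and a −log10 p of 1017, and it was the strongest peak of the list. In RNH1 it had a pileup of 348 (312 to 387), a fold of 17.7 and a −log10 p of 301, the fourth of the list by p and the fifth by pileup. The pileup intervals of the 3 libraries did not overlap. FLAG-MCM8 had 3.70 times the pileup of S9.6 and 12.1 times that of RNH1, or 4.64 and 16.5 times when each pileup was divided by the lowest background of its list.

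The IgG list had no peak on MCM8, and its nearest peak lay 138301 bp from the transcription start site (TSS). The S9.6 and RNH1 lists had none on exons 15 and 16. The labels name a FLAG-MCM8 plasmid for 1 of the 3 libraries that share the peak on exons 9 and 10, and the source of the fragments in the other two was not tested. Other peaks shared both edges too. FLAG-MCM8 and S9.6 had 12 peaks with the same start and end, and 1 of these, the MCM8 peak, also had the same summit. FLAG-MCM8 and RNH1 had 11, again with 1 of the same summit, and S9.6 and RNH1 had 17, with 3. IgG shared 2 with S9.6, of which 1 had the same summit, 1 with RNH1 and 0 with FLAG-MCM8. In FLAG-MCM8, S9.6 and RNH1 together 4 regions had the same edges. The 3 beside MCM8 (chr4:166908285-166908555, chr15:97755033-97755654 and chrX:152572381-152572966) had pileups of 13 to 30 fragments and a different summit in each list.

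**Figure D1:**
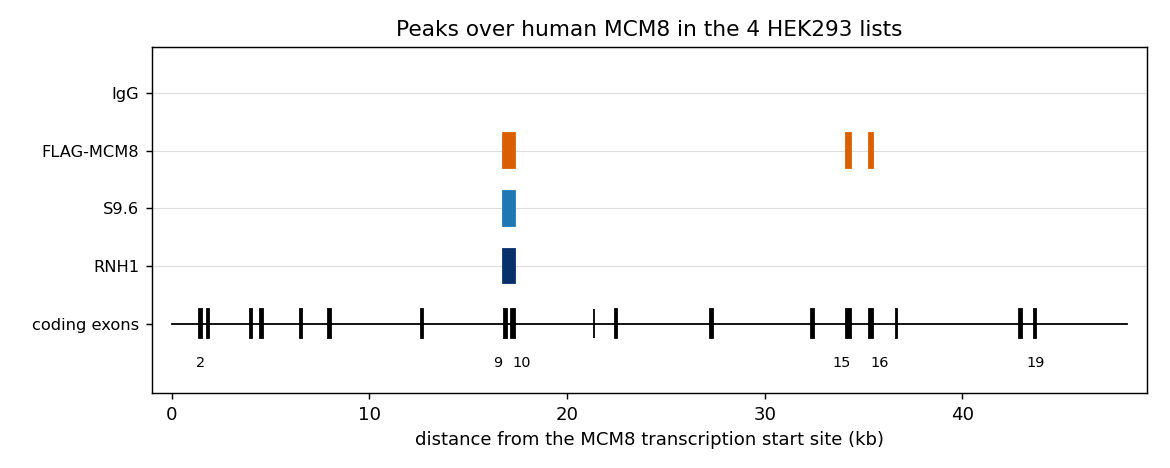
Peaks over human MCM8, with the distance from the TSS in kb on the x axis, a line for each HEK293 list and the 18 coding exons in black (exons 2, 9, 10, 15, 16 and 19 numbered). Coloured blocks are peaks: FLAG-MCM8 has 3, S9.6 and RNH1 have 1 each at exons 9 and 10, and IgG has none.

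The position of these peaks was set against exon length. MCM8 has 18 coding exons with 2520 coding bases (transcript ENST00000610722.4). FLAG-MCM8 peaks covered 4 of the 18 and 770 of the 2520 bases (30.6%), and 14 coding exons had no peak in any list. Exons 15 (220 bp) and 16 (210 bp) are the longest. Exons 9 (152 bp) and 10 (196 bp) flank the shortest of the 17 coding introns, of 242 bp, although the second shortest, of 260 bp, lies between exons 2 and 3, which had no peak. The exons without a peak ranged from 31 to 199 bp.

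The deposited lists hold no short peaks. The shortest was 218 bp in FLAG-MCM8, 219 bp in S9.6, 224 bp in RNH1 and 306 bp in IgG, a width taken by 110, 84, 83 and 127 peaks. The exon 15 peak had the shortest width of its list and the exon 16 peak was 1 bp wider. Both are narrower than any RNH1 or IgG peak, and the exon 15 peak is narrower than any S9.6 peak. Signal over a single MCM8 exon could therefore be missing from these lists without being absent from the libraries, which was not tested.

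**Figure D2:**
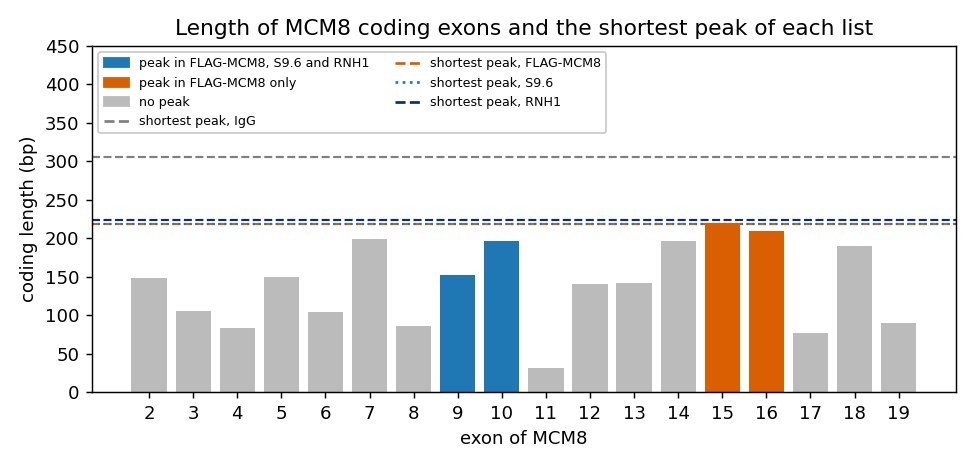
Coding length in bp of each MCM8 coding exon (bars) and the shortest peak of each HEK293 list (horizontal lines). Exons with a peak in 3 lists are blue, those with a peak in FLAG-MCM8 alone are orange and those without are grey. Exon 15, at 220 bp, is the longest, and exon 16 follows at 210 bp.

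Exon-bounded peaks were rare over all genes. A peak was counted as exon-bounded when both ends lay within 20 bp of the outer edges of the coding exons it covered. In FLAG-MCM8 the rule was met by 9 of 1252 peaks over coding exons (0.719%, Wilson interval 0.379 to 1.36%), of which 3 were on MCM8. In S9.6 it was met by 15 of 2891 (0.519%, 0.315 to 0.854%) and in RNH1 by 18 of 2380 (0.756%, 0.479 to 1.19%), in each with 1 on MCM8. In IgG it was met by 6 of 935 (0.642%, 0.294 to 1.39%), with none on MCM8. No MEF peak over the 3 genes was exon-bounded, where the shares over all genes were 0.493% in WT, 0.269% in KO, 0.476% without antibody, 0.732% in shControl and 0.296% in shDdx5.

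The MCM8 peaks differed from other exon-bounded peaks in pileup. The strongest others by p were on TNFRSF12A in FLAG-MCM8 (pileup 29), SLC66A3 in S9.6 (48) and VPS51 in RNH1 (44). In IgG, whose label names no plasmid, the strongest was on DDX5 (chr17:64499913-64500779), with a pileup of 2641, a fold of 12.3 and rank 2 in its list.

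The peaks on exons 9 and 10 and on exon 15 were low in GC for their lists, and the exon 16 peak was within the middle range. GC content was 35.1% for exons 9 and 10, 38.1% for exon 15 and 47.5% for exon 16. The median was 51.8% in FLAG-MCM8 (25th percentile 44.6%, 75th 58.6%), 59.1% in S9.6 (52.2%) and 59.0% in RNH1 (52.1%). The ratio of observed to expected CpG, which is near 1 in CpG islands, was 0.253 to 0.324 in these exons, near the list medians of 0.217 to 0.336.

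The 5′ end of human MCM8 had no peak. No HEK293 list had a peak within 1 kb of its TSS, and the nearest lay 10523 bp away in S9.6 and 16774 bp away in FLAG-MCM8 and RNH1. The gene shares its promoter region with TRMT6, which encodes a subunit of a tRNA methyltransferase and runs in the opposite direction.

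MCM9 had 1 peak in each of the 4 HEK293 lists, at 4 different places. The IgG peak lay in an intron (chr6:118915489-118915938), with a pileup of 22 fragments (13.8 to 33.3) and a fold of 5.30. The FLAG-MCM8 peak lay in another intron (chr6:118862198-118862508), with a pileup of 10 (4.8 to 18.4) and a fold of 3.70, and 99.5% of the peaks of its list had a lower p. Both of these intronic peaks lay far from a TSS, the IgG peak by 18763 bp. The S9.6 peak (chr6:118893955-118894255) had a pileup of 19 (11.4 to 29.7) and a fold of 3.75. Its midpoint lay at -47 bp from the TSS of ASF1A, a histone chaperone gene that sits inside MCM9 on the other strand. The RNH1 peak (chr6:118934886-118935283) lay at the MCM9 promoter, 30 bp from a TSS, with a pileup of 21 (13.0 to 32.1) and a fold of 5.06.

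None of these 4 peaks overlapped a peak of another HEK293 list. Pileups were near the list medians of 20, 19 and 21 fragments in IgG, S9.6 and RNH1. The FLAG-MCM8 pileup of 10 equalled the lowest of its list, whose median was 14. All 4 were far under those of the MCM8 exon peaks. The promoter peak of RNH1 had 74.4% GC and a CpG ratio of 0.950, and the ASF1A peak of S9.6 had 61.8% and 0.735. The intronic peaks of IgG and FLAG-MCM8 had CpG ratios of 0.0517 and 0.0421.

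HROB had a peak in the S9.6 list alone. It lay at chr17:44141518-44141781, with its midpoint at -257 bp from the TSS, a pileup of 25 fragments (16.2 to 36.9), a fold of 3.88 and a −log10 q of 5.95. Of all S9.6 peaks, 42.9% had a lower p. GC content was 55.3% and the CpG ratio 0.823. The nearest peak to the HROB TSS lay 3057 bp away in IgG, 3325 bp in RNH1 and 40381 bp in FLAG-MCM8.

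**Figure D3:**
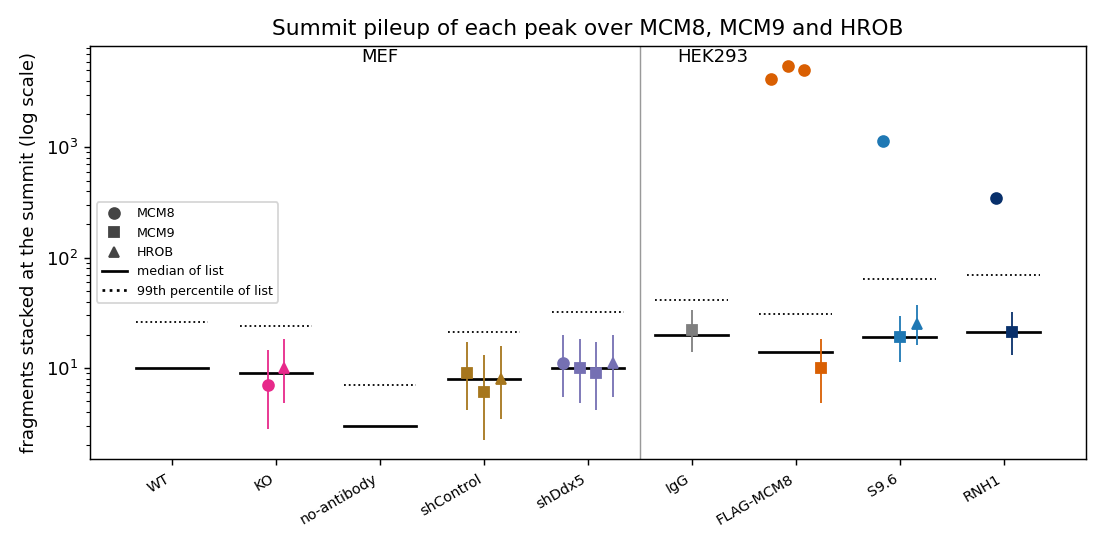
Summit pileup of each of the 19 peaks on a log scale, by list, with 95% Poisson intervals (points; circles MCM8, squares MCM9, triangles HROB), beside the median (solid line) and 99th percentile (dotted line) of all peaks of the list. The MCM8 exon peaks of FLAG-MCM8, S9.6 and RNH1 lie between 348 and 5481 fragments, and the other 14 peaks lie between 6 and 25.

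The count of genes with a peak was read against all protein-coding genes. With IgG 1 of the 3 genes had a peak over its body or the flanking 1 kb, where 26.5% of 20033 genes did. With FLAG-MCM8 2 of the 3 did (28.4% of all genes), with S9.6 all 3 (43.6%) and with RNH1 2 (37.0%). Within 1 kb of any annotated TSS of the gene the counts were 0 with IgG (6.39% of all genes), 0 with FLAG-MCM8 (12.6%), 2 with S9.6 (MCM9 and HROB, 30.8%) and 1 with RNH1 (MCM9, 25.3%). The S9.6 peak at ASF1A is thus also near an annotated start of MCM9. With 3 genes, these counts cannot be told from the background shares. In peaks per Mb, MCM8 had 59.6 in FLAG-MCM8, 19.9 in S9.6 and RNH1 and 0 in IgG. MCM9 had 8.08 in each list, and HROB 44.3 in S9.6 and 0 elsewhere. Over all protein-coding genes the values were 5.93 in FLAG-MCM8, 9.15 in S9.6, 7.58 in RNH1 and 6.28 in IgG. A single peak in the MCM8 window already gives 19.9, so these values show no enrichment. The 3 FLAG-MCM8 peaks are those on exons, where plasmid fragments cannot be told apart.

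In MEFs the lists of KO, shControl and shDdx5 had peaks over these genes, and WT and no-antibody had none. WT had peaks at 0 of the 3 genes (19.2% of 21938 genes), KO at 2 (26.1%), no-antibody at 0 (7.99%), shControl at 2 (27.8%) and shDdx5 at 3 (32.7%). The shDdx5 peak at Mcm8 lay in the flanking 1 kb alone. Within 1 kb of any annotated TSS of the gene the counts were 0 in WT (11.6% of all genes), 2 in KO (16.4%), 0 in no-antibody (1.34%), 2 in shControl (15.2%) and 3 in shDdx5 (23.6%). As in HEK293 cells, counts over 3 genes cannot be told from the background shares. The 9 peaks had pileups of 6 to 11 fragments, beside list medians of 9 in KO, 8 in shControl and 10 in shDdx5. From 19.1 to 90.0% of the list of a given peak had a lower p. Only 3 of the 9 passed a q of 0.05. These lay at the starts of neighbouring genes, Asf1a in shControl and shDdx5 and Trmt6 in shDdx5. The no-antibody library was too shallow for the absence of a peak in it to be compared with the S9.6 lists.

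At Mcm8 the KO list had a peak at chr2:132816436-132816690, downstream of the TSS, with its summit at 132816589 in intron 1 and 30 bp over the end of exon 1. Its pileup was 7 fragments (2.81 to 14.4), its fold 3.31 and its −log10 q 0.682, and 78.1% of KO peaks had a lower p. The lowest pileup listed in WT was also 7, and the lowest background was 1.53 in WT and 1.31 in KO. Whether WT held signal at this site below its listing limit was not tested. The WT list had no peak within 427640 bp of the Mcm8 TSS. The shDdx5 list had a peak on the other side of the TSS (chr2:132815704-132816126), over the first exon of Trmt6, with a pileup of 11 (5.49 to 19.7), a fold of 4.31 and a −log10 q of 2.54. These peaks did not overlap.

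Mcm8 and Trmt6 are divergent in the mouse too, with 85 bp between their annotated starts. The plus-strand mm10 sequence of this gap (chr2:132816056-132816140) is shown because the shDdx5 peak ends inside it, and capitals mark CG.
Between Trmt6 and Mcm8, mouse: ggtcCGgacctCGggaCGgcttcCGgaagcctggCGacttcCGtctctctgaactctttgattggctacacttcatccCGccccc

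The gap holds 7 CG and 62.4% GC. On 1 strand or the other it holds CCGGAAG, the core bound by ETS factors, CCAAT and GGGCGG. Of 32851 mouse promoters of 300 bases in RefSeq (250 before to 50 after a start, mm10), 8.86% hold CCGGAAG, 37.4% CCAAT and 35.7% GGGCGG. The promoters of Mcm8 and Mcm9 in that set hold all 3, and Hrob and Trmt6 are not in the set. A match describes the letters of the window and shows no binding.

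The deletion in the KO could not be checked from peaks. Exon 7 of Mcm8 (chr2:132823175-132823373, 199 bp) had no peak in any MEF list, and the nearest lay 434674 bp away in WT, 6485 bp in KO and 7049 bp in shDdx5. No coding exon of Mcm8 had a peak in any MEF list.

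At Hrob the KO and shDdx5 lists had overlapping peaks across the TSS. The KO peak (chr11:102248736-102249012) had a pileup of 10 fragments (4.8 to 18.4), a fold of 3.23 and a −log10 q of 0.841. The shDdx5 peak (chr11:102248783-102249110) had a pileup of 11 (5.49 to 19.7), a fold of 2.86 and a −log10 q of 0.839. The shControl peak (chr11:102256529-102256821) lay in an intron, 7793 bp from the TSS and within 1 kb of another annotated start of Hrob, with a pileup of 8 (3.45 to 15.8) and a fold of 3.16. The WT list had its nearest peak 3663 bp from the TSS. The part of the overlap upstream of the gene (chr11:102248783-102248881, plus strand, mm10) is shown, with CG in capitals, because it is the only sequence upstream of Hrob under a peak in both lists.
Hrob, mouse, upstream part shared by the KO and shDdx5 peaks: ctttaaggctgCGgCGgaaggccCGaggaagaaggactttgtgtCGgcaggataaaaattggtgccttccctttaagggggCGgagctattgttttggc

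Both TSS peaks were rich in CpG, with ratios of 0.874 in KO and 0.955 in shDdx5, beside 0.295 for the intronic shControl peak and list medians of 0.256, 0.292 and 0.204. Their −log10 q values are below that of a q of 0.05, as is that of the KO peak at Mcm8.

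At Mcm9 the shControl and shDdx5 lists had peaks at the same 2 places, and WT, KO and no-antibody had none. At the Mcm9 promoter the shControl peak (chr10:53629474-53629992) had a pileup of 6 fragments (2.2 to 13.1), a fold of 2.86 and a −log10 q of 0.241. The shDdx5 peak (chr10:53629362-53630037) had a pileup of 9 (4.12 to 17.1), a fold of 3.52 and a −log10 q of 1.27. These overlapped. At the TSS of Asf1a, inside Mcm9 on the other strand, the shControl peak (chr10:53596699-53596919) had a pileup of 9 (4.12 to 17.1), a fold of 4.09 and a −log10 q of 1.43. The shDdx5 peak there (chr10:53596560-53596802) had a pileup of 10 (4.8 to 18.4), a fold of 3.58 and a −log10 q of 1.48. The latter also overlapped, and at both places the pileup intervals overlapped widely, so no difference between shControl and shDdx5 was detectable at this depth. All 4 were rich in GC (68.6 to 78.2%), with CpG ratios of 0.974 to 1.10.

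The KO list held no Mcm9 peak, and its nearest lay 336756 bp from the Mcm9 TSS. In position alone, the Asf1a peaks in mouse and the S9.6 peak in HEK293 cells both lay at the start of the gene nested in MCM9. WT, KO and RNH1, also made with S9.6, had no peak at that start.

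**Figure D4:**
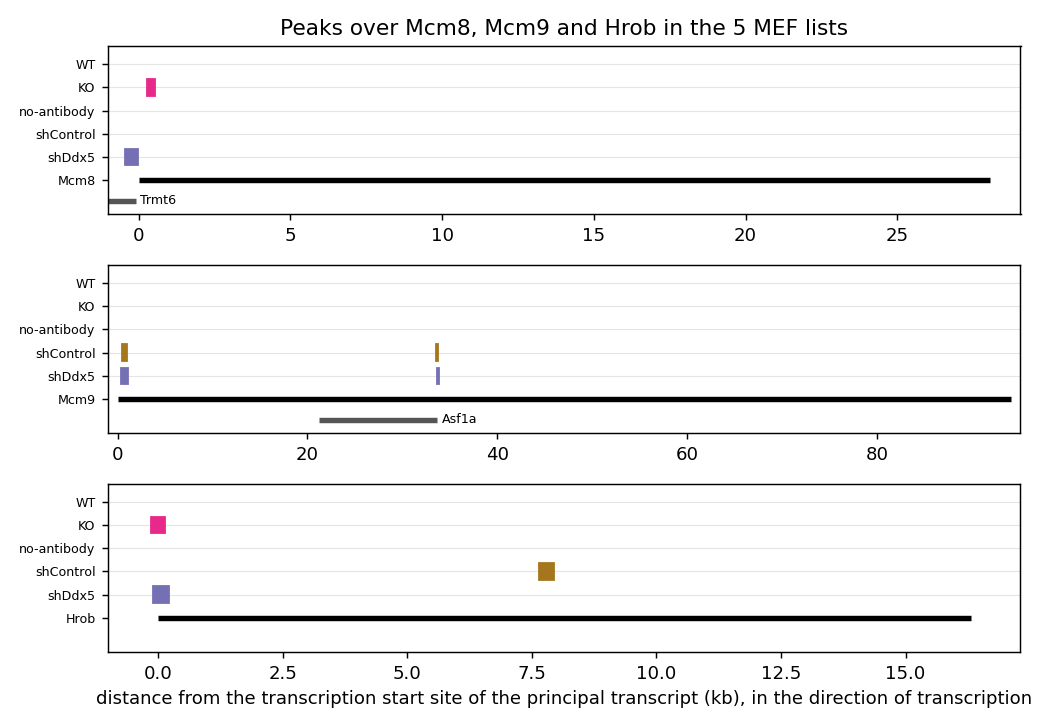
Peaks over Mcm8, Mcm9 and Hrob in the 5 MEF lists, with the distance in kb from the TSS of the principal transcript on the x axis, in the direction of transcription. Coloured blocks are peaks, black bars the genes and grey bars the neighbours Trmt6 and Asf1a. KO has peaks at Mcm8 and Hrob, shControl at Mcm9 and Hrob, shDdx5 at all 3, and WT and no-antibody have none.

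Other MCM genes were counted for comparison. Of 7 further MCM genes (MCM2 to MCM7 and MCM10, which act in DNA replication), a peak over the body or flank was found for 1 gene with IgG (26.5% of all genes), 3 with FLAG-MCM8 (28.4%), 2 with S9.6 (43.6%) and 2 with RNH1 (37.0%). With 7 genes these counts cannot be told from the shares over all genes. In FLAG-MCM8 these were MCM2, MCM4 and MCM7, and both S9.6 and RNH1 had MCM6 and MCM7. All of these also had a peak within 1 kb of a TSS, where the shares over all genes were 6.39, 12.6, 30.8 and 25.3% in the order above. In MEFs the counts were 2 in WT (Mcm4 and Mcm7; 19.2% of all genes), 3 in KO (26.1%), 0 without antibody (7.99%), 4 in shControl (27.8%) and 4 in shDdx5 (32.7%). At a TSS they were 2, 2, 0, 1 and 4, beside 11.6, 16.4, 1.34, 15.2 and 23.6% of all genes.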

How the data were processed

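The authors trimmed the CUT&Tag reads, aligned them with bowtie2 to mm10 (MEFs) or hg38 (HEK293 cells) and called peaks in each library with MACS2, for which the submitters' processing notes name version 2.1.2 and the paper another. The no-antibody library was not used as input in MEFs. The use of IgG as input is not given in the sources used here. Peak numbers in the HEK293 lists skip 1462 to 2086 values. They were counted after peaks off the numbered chromosomes, X and Y were left out. Filtering after calling therefore cannot be told apart from this step. The paper selects HEK293 peaks by a fold above 2 and a p-value below 0.05. Folds reached down to 1.79 (S9.6) and 1.72 (RNH1), so these lists were not held to that rule on the deposited fold. The source of the skipped numbers was not tested. None of the skipped numbers fell at the 3 loci.

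Per the file headers and values, each deposited peak has a fold (a ratio of pileup to local background, with a pseudocount of 1), a −log10 p-value, a −log10 q-value and a summit offset. The deposited score was not used, as it repeats the −log10 p-value. Pileup and local background were solved from fold and p (100.0% of peaks in each list). On simulated data the step recovered 2000 of 2000 pileups in each run. The simulated backgrounds came from a general range and did not reach the 495 fragments of exons 15 and 16 in FLAG-MCM8. The exon rule found 500 of 500 planted peaks with each annotation. They were planted within its 20 bp tolerance of exon edges, so this result was fixed in advance. Only peaks on the numbered chromosomes, X and Y were used, so mitochondrial peaks were left out. Genes came from GENCODE 44 and M21 (TSS window 1 kb, exon tolerance 20 bp), and sequences from hg38, mm10 and, for mouse promoters, RefSeq. Poisson intervals are exact and shares have Wilson intervals, at 95%. The tools were matplotlib 3.10.9, scipy 1.17.1, pandas 2.3.3 and numpy 2.4.6 in Python 3.11.15. Counts over a list of recombination genes, and 1 peak sequence, are not reported here. The genes, the gene list and the exon rule were chosen with earlier results of these data known. All peaks over the 3 genes were named, with the genes under them, and of other exon-bounded peaks the 3 with the highest −log10 p-value of a list.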

Additional observations from a re-analysis of the deposited data

How the results depend on the processing

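The counts depended on the strength required of a peak. With a q of 0.05 or lower the peaks over the 3 genes numbered 0 in KO, 1 in shControl and 2 in shDdx5, with a q of 1e-05 or lower 0 in each of these 3, and with a fold of at least 4 they numbered 0 in KO, 1 in shControl, 1 in shDdx5 and 1 in S9.6. With 5 kb on each side WT had 1, IgG 2, shDdx5 5, S9.6 4 and RNH1 3, and the other lists kept their counts. An edge tolerance of 10 bp left 0 exon-bounded peaks at the genes in S9.6 and 0 in RNH1, since their peak ends 12 bp past exon 10. The gene body alone, at least 50% of the peak inside the window and merging of peaks within 500 bp kept every count over the 3 genes within 1.5 times its value, as did a tolerance of 50 bp, the principal transcript and a fold of at least 4 for the exon-bounded peaks at these genes. With the gene body alone, however, S9.6 went from 3 peaks to 2, losing its HROB peak, and shDdx5 from 4 to 3, losing its Mcm8 peak. Protein-coding genes with a peak numbered, at a q of 0.05 or lower, 1902 in WT, 2940 in KO, 175 without antibody and 2636 in shControl, at a q of 1e-05 or lower 199, 408, 5 and 218 in the same lists, 1076 in shDdx5 and 2898 in FLAG-MCM8, and at a fold of at least 4 they numbered 1326 in WT, 2070 in KO, 477 without antibody, 1891 in shControl and 3059 in shDdx5. No paired analysis was possible because each group is 1 library, and for the same reason no library could be left out. MEF pileups of 6 to 11 fragments have intervals too wide to order the lists.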

Other observations

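Other exon-bounded peaks, named as the 3 with the highest −log10 p of each HEK293 list, were far lower than those on MCM8, apart from DDX5 in IgG. In IgG they were on PIGQ, with a pileup of 37 fragments, and KRTAP1-4, with 21. In FLAG-MCM8 they were on TNFRSF12A (29), MSLNL (20) and HP (12), in S9.6 on SLC66A3 (48), ZNF169 (19) and CCND3 (30), and in RNH1 on VPS51 (44), ZFP91 (27) and ARMC5 (23).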
